A study of Homo sapiens with 6 samples.

Results

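DKK1, DKK3, AXIN2, LEF1, TCF7, TCF7L2, RNF43, ZNRF3 and WNT5A are 9 genes of WNT signaling, and their RNA levels were measured in SKOV3 cells, an established ovarian cancer cell line, with and without stimulation of STING1. They were taken by gene symbol from a table of 60498 genes and were selected on the lower level of DKK1 after stimulation in all 3 lines of the study. The cGAMP response chose them, so it is given as a description with no test. Of the 9 genes, 8 averaged at least 10 counts per library and were among the 15126 genes analysed, and LEF1, with a mean count of 4.0, was not.

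The parent line carries 1 wild-type allele of STING1 and 1 HAQ allele, a haplotype with 3 linked amino acid changes, and is called WT/HAQ. The edited lines came from cells infected with lentivirus encoding Cas9 and guide RNAs that flank the coding sequence, selected in puromycin and grown as single clones, and they retain either the WT allele alone (WT/-) or the HAQ allele alone (HAQ/-). Each line gave 1 control library and 1 library from cells given 10 μg/mL of 2’3’-cGAMP, the cyclic dinucleotide that binds STING1, for 30 min and then rested for 4 h. According to the study's methods, cGAMP entered the cells through digitonin permeabilization, and the methods do not say whether control cells received the same buffer. No condition has a replicate, so 95% intervals cover counting error only and the spread between cultures or between clones of one genotype was not measured. An allele and the clone that carries it cannot be told apart, and neither can cGAMP and any difference in handling of the control cells.

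WNT proteins are secreted ligands that bind Frizzled receptors and the co-receptors LRP5 and LRP6. Without a ligand, a complex of AXIN, APC, GSK3 and casein kinase marks β-catenin for destruction. With a ligand, β-catenin accumulates, enters the nucleus and joins TCF/LEF factors at target genes. Several of those targets, among them AXIN2, RNF43, ZNRF3 and DKK1, encode proteins that dampen the pathway. In ovarian cancers as in other tumors, DKK1 is studied as a secreted protein with effects on both tumor cells and immune cells.

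The libraries held 12444822 to 17608467 counts, and the smaller totals were those of the WT/- and HAQ/- cells given cGAMP. Normalized counts are counts divided by the relative size of each library, and a fold change divides the level with cGAMP by that of the same line without it. STING1, the edited gene, had 669.1 normalized counts in the WT/HAQ control library, 353 in WT/- and 213 in HAQ/-. Interferon beta (IFNB1), a standard readout of STING1 activation, went from 5 to 1325 counts in the parent, from 2 to 1934 in WT/- and from 6 to 15 in HAQ/-. Of 9 markers of epithelial and ovarian cancer cells, all had a mean count of at least 10, led by ERBB2, and their summed level was 72491 to 107507 normalized counts per library. WT1 and MUC16, which mark many serous ovarian cancers, were low, at no more than 68.4 normalized counts. The 4 leukocyte markers summed to between 1.09 and 7.60 normalized counts and the 3 endothelial markers to between 9.72 and 39.2. The 4 fibroblast markers, which include COL1A1, summed to between 1336 and 2206. As in any bulk sample, fewer expressing cells and less RNA per cell cannot be told apart.

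DKK1 (ENSG00000107984) lies on the plus strand of chromosome 10 of GRCh38, from 52314281 to 52318042. TCF7L2 lies on the same strand of chromosome 10, from 112950247 to 113167678. The 250 bases before the start of each are shown, since these were the genes of the 9 whose cGAMP log2 fold change had an interval below 0 in more than 1 line. They are from RefSeq on GRCh38.p14, 5′ to 3′ on the plus strand, at chr10:52314031-52314280 for DKK1 and chr10:112949997-112950246 for TCF7L2. Capitals mark matches to the TCF/LEF motif CTTTGAA or CTTTGAT and to the TATA box TATAAA, which do not overlap.
DKK1: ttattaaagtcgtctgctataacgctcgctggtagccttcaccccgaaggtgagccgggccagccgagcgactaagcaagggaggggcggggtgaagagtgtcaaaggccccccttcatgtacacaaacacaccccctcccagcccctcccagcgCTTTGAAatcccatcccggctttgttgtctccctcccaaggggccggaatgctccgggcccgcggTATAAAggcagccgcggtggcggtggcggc
TCF7L2: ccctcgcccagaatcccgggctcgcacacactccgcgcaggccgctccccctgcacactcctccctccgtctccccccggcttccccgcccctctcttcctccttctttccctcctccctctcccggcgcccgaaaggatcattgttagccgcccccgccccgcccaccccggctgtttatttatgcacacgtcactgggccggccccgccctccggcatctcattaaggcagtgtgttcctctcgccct
The DKK1 window held 1 match to the TCF/LEF letters, which begins 95 bases before the start, and 1 TATA box, which begins 30 bases before it. The TCF7L2 window held neither. Promoter windows were found for 6 of the 9 genes, with 11 windows in all. DKK3, AXIN2 and ZNRF3 had no window and were not searched. DKK1 was the 1 gene of the 6 with the TCF/LEF letters, searched on both strands like the other motifs. Those letters occurred in 5.94% of all 35116 windows of the same length, and the TATA box letters, which DKK1 and TCF7 held, in 10.7%. The letters GAAANNGAA, the core of the interferon-stimulated response element, occurred in 6.88% of all windows and in 0 of these 11. The 2 windows were 62.8% (DKK1) and 68% (TCF7L2) G and C. The motif letters were chosen after the DKK1 window had been seen, so its match was known beforehand and does not set DKK1 apart. The match is a description of these letters and says nothing of which factor was bound.

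DKK1 encodes a secreted protein that binds LRP5 and LRP6 and blocks WNT reception. In control cells it had 3627 normalized counts in the parent, 1839 in WT/- and 1993 in HAQ/-. In cells given cGAMP it had 71.3 in the parent (95% Poisson interval 56.1 to 89.4), 144 in WT/- (118 to 174) and 764 in HAQ/- (708 to 823). Every control library was above every cGAMP library, and the HAQ/- library with cGAMP stayed closest to its control.

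**Figure D1:**
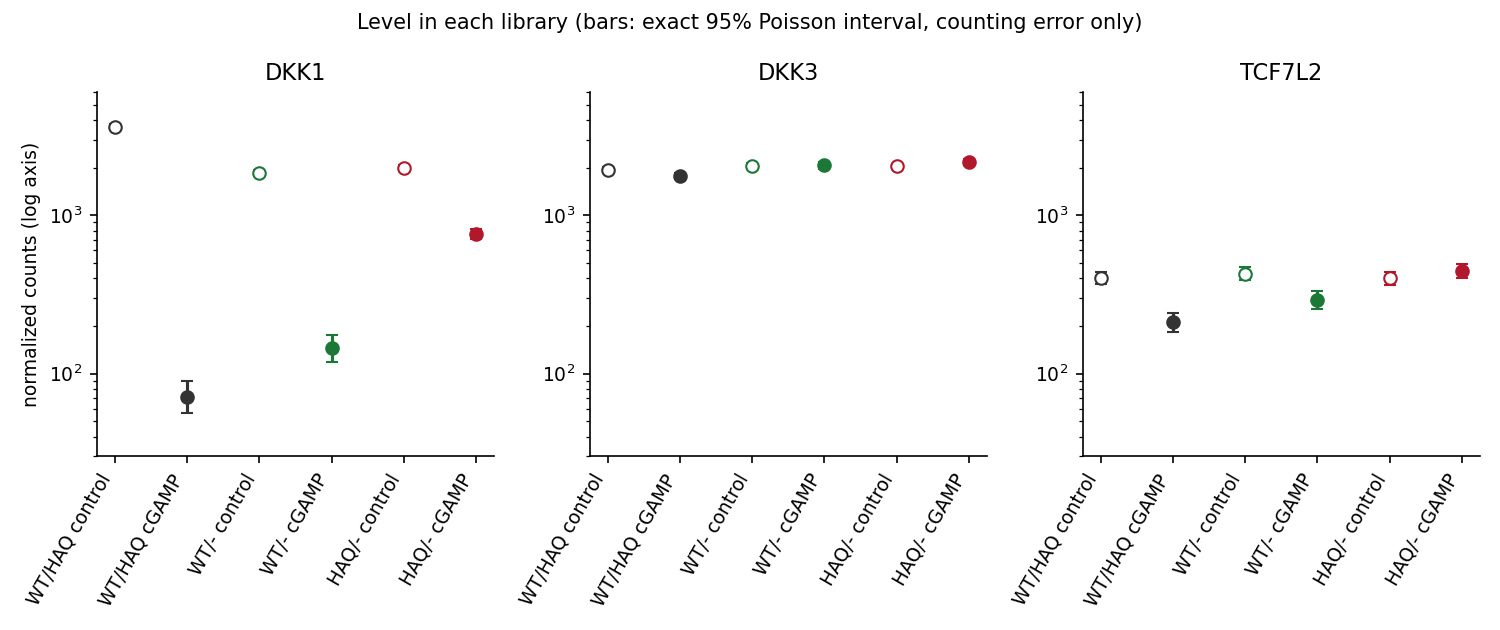
Normalized counts (log axis) of DKK1, DKK3 and TCF7L2 in each of the 6 libraries, with exact 95% Poisson intervals that cover counting error only; open points are control and filled points cGAMP libraries. DKK1 ranges from 3627 in the WT/HAQ control to 71.3 after cGAMP in the same line, DKK3 stays between 1770 and 2155, and TCF7L2 is lower after cGAMP in WT/HAQ and WT/- only.

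In WT/HAQ, the cGAMP library held 1.97% of the DKK1 level of its control, 50.9-fold lower, with a log2 fold change of -5.67 (95% Wilson interval -6.00 to -5.34). This was the lowest of the 15114 fold changes in that line. In WT/- the log2 fold change was -3.67 (-3.95 to -3.39), or 12.8-fold lower, which left 7.84% of the control level and ranked 9 from the lowest of 15099. In HAQ/- it was -1.38 (-1.51 to -1.26), or 2.61-fold lower, which left 38.3% and ranked 120 from the lowest of 15072. The fold was lowest in the parent and nearest to 0 in HAQ/-, an order that was not tested. Among all genes analysed, at least 1.5-fold lower with cGAMP were 12.3% in the parent, 8.77% in WT/- and 5.76% in HAQ/-, and 203 (1.34%) were lower in all 3 lines.

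The DKK1 folds, on which the genes were selected, differed in size between lines, which is described here with no test. The log2 fold change in WT/- lay 2.0 above that in WT/HAQ (95% interval 1.56 to 2.43), the one in HAQ/- lay 4.29 above WT/HAQ (3.93 to 4.64), and HAQ/- lay 2.29 above WT/- (1.98 to 2.59). These differences compare 1 pair of libraries with another, so they cover neither the spread between cultures nor that between clones. The starting levels differed too. The WT/- control held 0.507 (0.481 to 0.535) and the HAQ/- control 0.550 (0.522 to 0.578) of the DKK1 level of the parent, and HAQ/- and WT/- controls were close, at a ratio of 1.08 (1.02 to 1.15). After cGAMP, HAQ/- held 10.7 times (8.45 to 13.6) the DKK1 level of WT/HAQ and 5.30 times (4.33 to 6.48) that of WT/-. WT/- held 2.02 times (1.51 to 2.71) that of WT/HAQ.

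**Figure D2:**
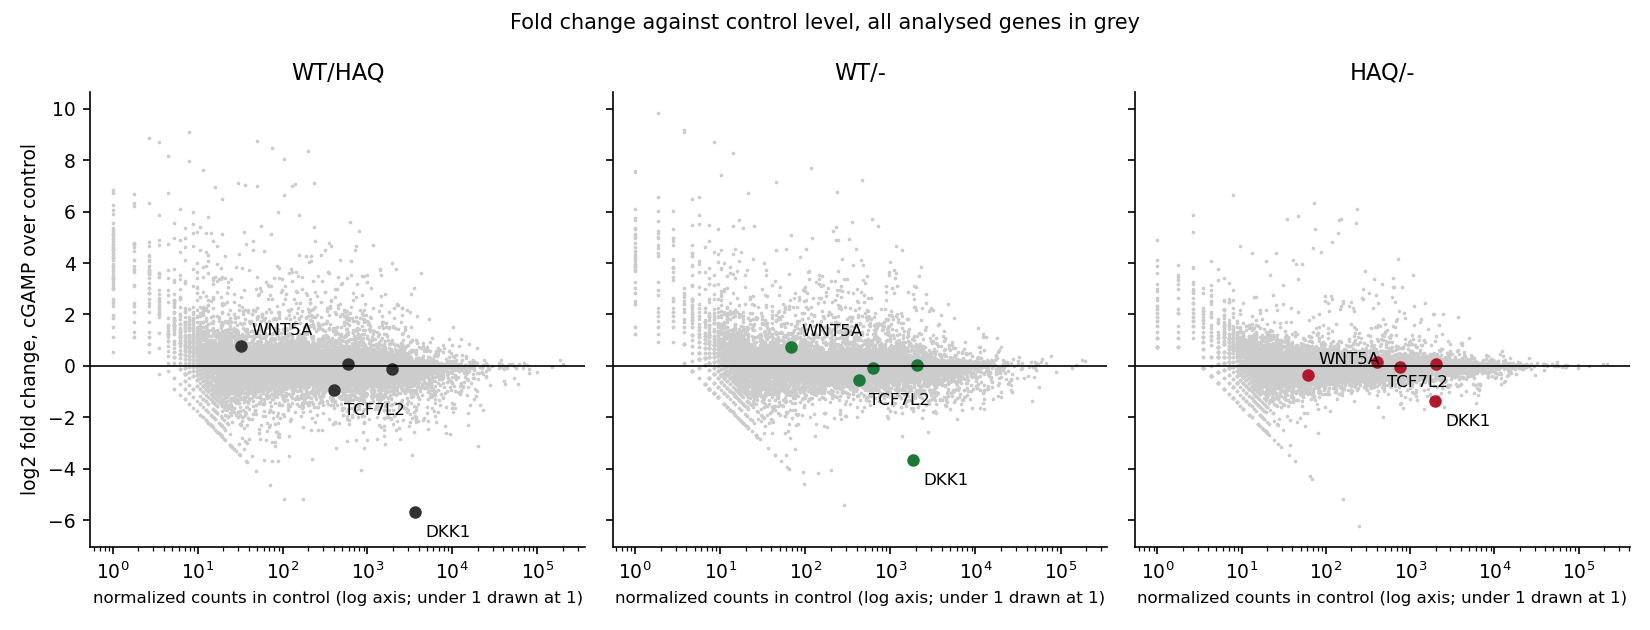
Log2 fold change (cGAMP over control) against normalized counts in the control library (log axis) for each line, with all analysed genes in grey, colored points for DKK1, TCF7L2, WNT5A, ZNRF3 and DKK3, and names beside the first 3 of these. DKK1 lies at the lower edge of the cloud for its level at -5.67 in WT/HAQ and -3.67 in WT/-, and at -1.38 in HAQ/-.

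On a scale of CPM (counts scaled to a fixed library total) per kilobase of annotated exon, which allows genes to be compared, DKK1 was among the abundant transcripts of these cells. Its level in controls was 104.5 CPM per kilobase in the parent, 53.0 in WT/- and 57.4 in HAQ/-, and it ranked 282, 653 and 542 from the highest of the analysed genes. After cGAMP the level was 2.05, 4.16 and 22.0, and the rank was 9821, 7504 and 1736. With a mean of 40.5 over the 6 libraries it was the highest of the secreted inhibitors and their co-receptors in a list of 101 WNT pathway genes. DKK3 and KREMEN1 were above it in the parent and WT/- libraries with cGAMP, and SFRP1 was in the parent library with cGAMP.

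Immediate-early genes, which report recent stress and growth signals, were lower in part after cGAMP. Of 12 such genes, 6 were at least 1.5-fold lower with cGAMP in the parent, 3 in WT/- and 7 in HAQ/-, and 1, 0 and 0 were higher. Of all genes analysed, 12.3%, 8.77% and 5.76% were lower and 12.8%, 11.9% and 6.75% higher. Their median log2 fold change was -0.58, -0.22 and -0.89, with the lowest value in the line where DKK1 was nearest to its control. The part of this shift in the level of DKK1 was not tested.

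By a rule that looked for genes with a like pattern, the 5 with the highest Pearson correlation with DKK1 on the log2 scale over the 6 libraries, among 10779 genes that average at least 100 counts, were JADE1 (0.998), MYH9 (0.996), GNL1 (0.996), NEK6 (0.995) and CD2BP2 (0.994). The points share the cGAMP contrast in each line, so these values are descriptions. The log2 folds of the 5 genes were smaller than those of DKK1. JADE1, a chromatin scaffold protein, had log2 fold changes of -1.42 in the parent, -0.91 in WT/- and -0.46 in HAQ/-. MYH9, a nonmuscle myosin heavy chain, had -0.73, -0.48 and -0.16 in the same order. NEK6, a mitotic kinase, had -1.01, -0.69 and -0.23.

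DKK3 (chromosome 11, 11956207 to 12009769, minus strand) is the divergent member of the Dickkopf family and is not a typical LRP5 or LRP6 antagonist. It had 1940 and 1770 normalized counts in the parent without and with cGAMP, 2039 and 2065 in WT/-, and 2031 and 2155 in HAQ/-. The 6 values span a narrow range, and the log2 fold changes were -0.13 (-0.22 to -0.04), 0.02 (-0.08 to 0.11) and 0.09, with an interval in HAQ/- that includes 0. In every line the fold of DKK1 was lower than that of DKK3, but DKK1 was selected on its fall, so nothing is read from this.

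**Figure D3:**
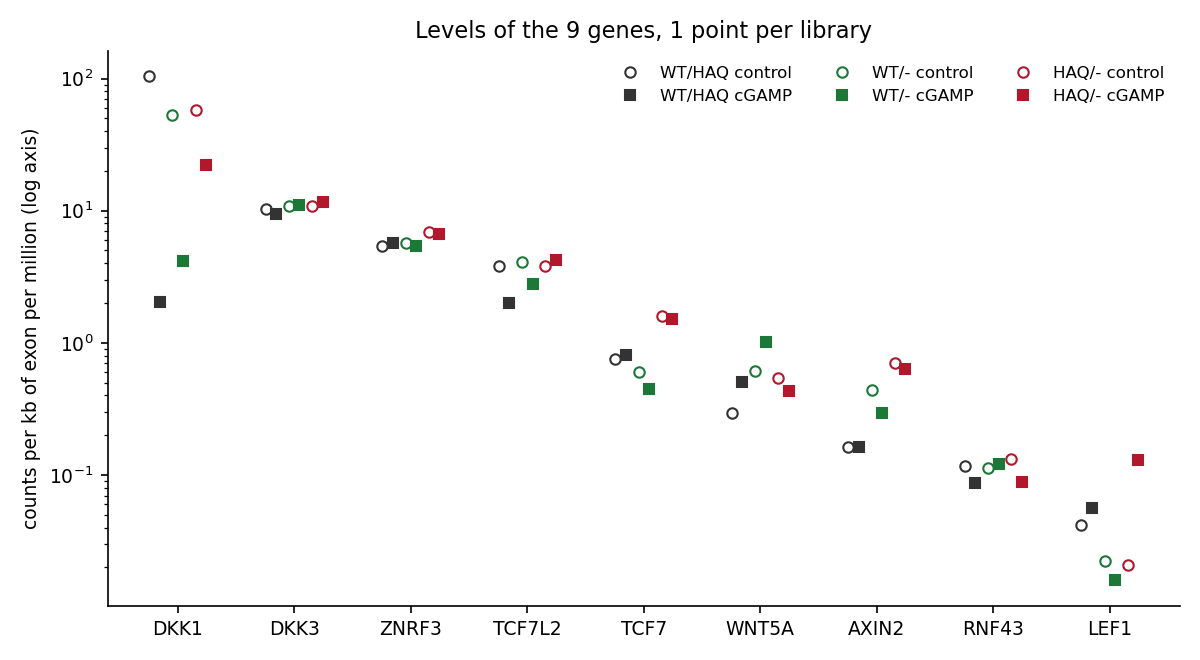
CPM per kilobase of annotated exon (log axis) of the 9 genes in the 6 libraries, 1 point per library, with open circles for control and filled squares for cGAMP. DKK1 is the highest gene in all 3 controls (53.0 to 104.5), and after cGAMP it lies under DKK3 and ZNRF3 in WT/HAQ and WT/-.

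In the control libraries, the order per length was DKK1, DKK3, ZNRF3 and TCF7L2 in each line, with intervals that did not overlap between neighbours. In WT/HAQ these levels were 104.5, 10.4, 5.44 and 3.82 CPM per kilobase. TCF7, WNT5A, AXIN2, RNF43 and LEF1 lay below them, all at no more than 1.60 in controls and in an order that differed between lines. In the HAQ/- control AXIN2 at 0.709 (0.548 to 0.902) and WNT5A at 0.546 (0.426 to 0.690) did not differ beyond their intervals. Likewise, TCF7 and WNT5A did not differ beyond their intervals in the WT/- control, at 0.598 (0.487 to 0.726) and 0.609 (0.478 to 0.766), and AXIN2 and RNF43 did not in WT/HAQ, at 0.163 (0.091 to 0.269) and 0.116 (0.062 to 0.199). With cGAMP in WT/HAQ, DKK1 at 2.05 (1.62 to 2.57) and TCF7L2 at 2.0 (1.75 to 2.29) did not differ beyond theirs.

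WNT5A (chromosome 3, 55465715 to 55490539, minus strand), the only ligand of the 9, is best known for β-catenin-independent signaling. It had 32.7 normalized counts in the WT/HAQ control and 56.1 with cGAMP, 68.1 and 113.5 in WT/-, and 61.1 and 48.2 in HAQ/-. The library with cGAMP was higher in WT/HAQ and WT/- and lower in HAQ/-. The log2 fold changes were 0.78 (0.19 to 1.37), 0.74 (0.29 to 1.19) and -0.34 (-0.88 to 0.20), from 37 to 85 counts per library. The WT/- and HAQ/- controls held 2.08 (1.41 to 3.09) and 1.87 (1.26 to 2.77) times the level of the parent.

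RNF43 and ZNRF3 are transmembrane ubiquitin ligases that remove Frizzled receptors from the cell surface, and both are targets of β-catenin. ZNRF3 (chromosome 22, 28883572 to 29057488, plus strand) had 594 and 623 normalized counts in the parent without and with cGAMP, 622 and 590 in WT/-, and 752 and 728 in HAQ/-. Its 3 log2 fold changes, 0.07, -0.08 and -0.05, had intervals that include 0. The HAQ/- control was 1.27 times (1.14 to 1.40) the parent. RNF43 (chromosome 17, 58353676 to 58417595, minus strand) was near the detection limit, with 8 to 15 counts per library, and its log2 fold changes of -0.43, 0.10 and -0.58 had intervals that include 0. A change of the size seen for DKK1 in WT/HAQ or WT/- would lie outside these intervals, and a 1.5-fold change would not have been detectable at this depth.

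AXIN2 (chromosome 17, 65528563 to 65561648, minus strand) encodes a scaffold of the destruction complex and is a widely used readout of β-catenin activity. It had 15 and 14 counts in the parent without and with cGAMP, 38 and 18 in WT/-, and 66 and 47 in HAQ/-. The libraries differed more by line than by treatment. The log2 fold changes, 0.01, -0.56 and -0.16, had intervals that include 0. In controls, AXIN2 in WT/- was 2.67 times (1.48 to 4.82) and in HAQ/- 4.34 times (2.50 to 7.55) the parent.

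TCF7L2, TCF7 and LEF1 encode DNA-binding partners of β-catenin. TCF7L2 had 402 and 211 normalized counts in the parent without and with cGAMP, 428 and 291 in WT/-, and 399.6 and 445.5 in HAQ/-. The WT/- and HAQ/- controls held 1.07 and 0.994 of the parent's level, and the cGAMP libraries were lower in WT/HAQ and WT/-. The log2 fold changes were -0.93 (-1.16 to -0.70) in the parent, -0.56 (-0.79 to -0.32) in WT/- and 0.16 (-0.04 to 0.35) in HAQ/-. Of the other 8 genes, TCF7L2 had the highest correlation with DKK1 over the 6 libraries, at 0.880, and WNT5A the lowest, at -0.54.

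TCF7 (chromosome 5, 134114681 to 134151865, plus strand) had 119 and 127 normalized counts in the parent without and with cGAMP, 94.3 and 70.8 in WT/-, and 253 and 239 in HAQ/-. As for AXIN2, the libraries differed more by line than by treatment. The HAQ/- control was 2.12 times (1.73 to 2.60) the parent and 2.68 times (2.14 to 3.36) WT/-. The log2 fold changes of 0.09, -0.41 and -0.08 had intervals that include 0. LEF1 (chromosome 4, 108047545 to 108168956, minus strand) had 4 and 5 counts in the parent, 2 and 1 in WT/-, and 2 and 10 in HAQ/-, too few to be analysed, and its ratio in HAQ/- had a log2 interval of 0.63 to 4.67.

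**Figure D4:**
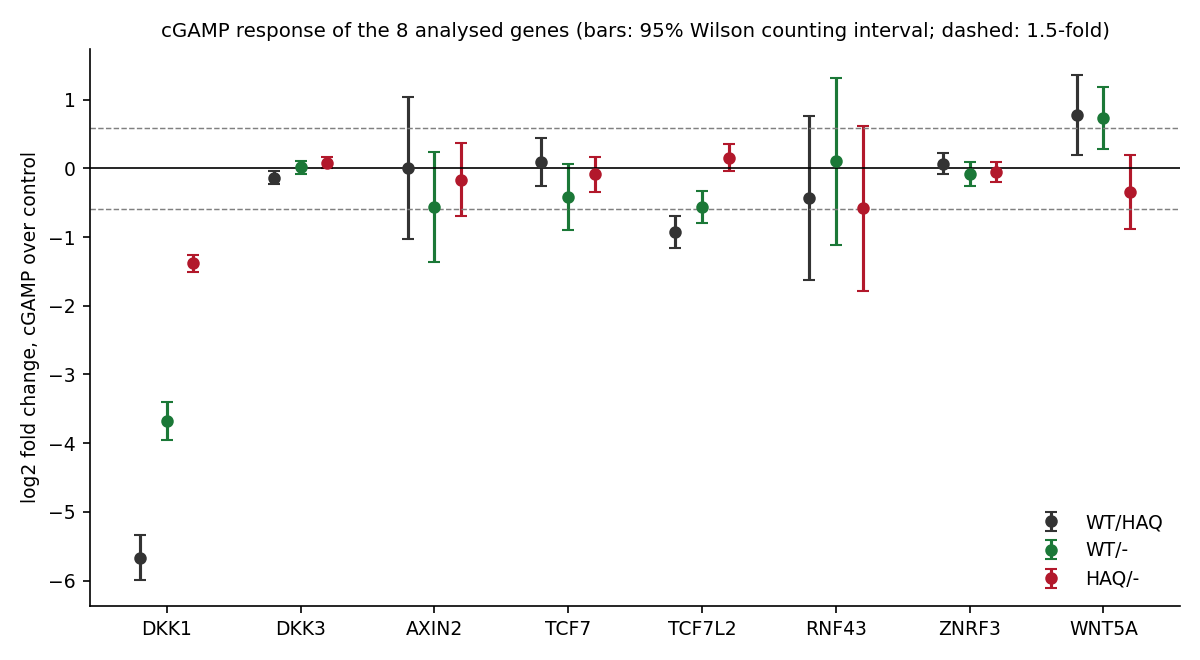
Log2 fold change (cGAMP over control) of the 8 analysed genes in each line, with 95% Wilson intervals on the 2 counts and dashed lines at 1.5-fold. DKK1 is below the lower line in all 3 lines, TCF7L2 is in WT/HAQ and lies just inside it in WT/- (-0.56), and WNT5A is above the upper line in WT/HAQ and WT/- (0.54 in WT/-, inside the line, after thinning).

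In all, 2 of the 8 genes were at least 1.5-fold lower in WT/HAQ (DKK1 and TCF7L2) and 1 in each of WT/- and HAQ/- (DKK1), where 12.3%, 8.77% and 5.76% of all genes analysed were lower. WNT5A was at least 1.5-fold higher in the parent and in WT/-, and none of the 8 was in HAQ/-. Of all genes analysed, 12.8% were higher in the parent, 11.9% in WT/- and 6.75% in HAQ/-. Some calls moved with the scaling or with thinning. In WT/-, TCF7L2 was also past 1.5-fold with total counts (-0.62) and after thinning to the smallest library (-0.59), AXIN2 was with total counts (-0.62), and WNT5A was not after thinning (0.54). RNF43 passed it in HAQ/- with total counts (-0.59) and, in the higher direction, in WT/- after thinning (0.65). Since the selection used these folds, nothing is read from the counts.

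The rest of the pathway was followed in 92 other genes, of which 65 were analysed. In WT/HAQ 12 of the 65 were at least 1.5-fold higher and 10 lower, in WT/- 8 and 9, and in HAQ/- 2 (FZD4 and FZD5) and 3 (NOTUM, FZD8 and BCL9L). In the parent these were 18.5% higher and 15.4% lower, against 12.8% and 12.3% of all genes analysed. In WT/- they were 12.3% and 13.8%, against 11.9% and 8.77%, and in HAQ/- 3.13% and 4.69% of those with a fold, against 6.75% and 5.76%. Their median log2 fold change was -0.17 in the parent, -0.18 in WT/- and -0.03 in HAQ/-, where all genes analysed had -0.01, 0.00 and -0.01. Across the lines, edgeR's quasi-likelihood test of the 3 cGAMP libraries against their 3 controls, blocked by line, called 1 of the 65 higher and 1 lower at an adjusted p under 0.05, where it called 2.27% of all genes higher and 0.959% lower. Without adjustment, 10 (15.4%) were higher and 17 (26.2%) lower at a p under 0.05, against 11.6% and 13.6% of all genes. Leaving out WT/- left 0 calls among the 65 and also 0 among all genes. Leaving out the parent left 0 among the 65, and 136 higher and 50 lower among all genes. Leaving out HAQ/- gave 9 higher and 16 lower of the 65, and 1286 and 1311 of all genes.

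FZD5, a Frizzled receptor, was the gene called higher, with a log2 fold change of 1.40 (SE 0.17, adjusted p = 0.0246). It had 334 and 752 normalized counts in the parent without and with cGAMP, 345 and 1282 in WT/-, and 336 and 742 in HAQ/-, so every cGAMP library was above every control. NOTUM, a secreted enzyme that inactivates WNT proteins by removing their lipid and a β-catenin target, was the gene called lower, at -3.52 (SE 0.48, adjusted p = 0.0327). Its counts were small, with 35 and 2 in the parent, 5 and 1 in WT/-, and 49 and 3 in HAQ/-. It passed the filter on low counts only through its parent and HAQ/- controls, so a lower level was needed for it to be tested at all, and its call supports nothing further. The adjusted p under the alternatives ranged from 2.53e-09 to 0.135 for FZD5 and from 0.00436 to 0.214 for NOTUM, and each passed in 4 of 7.

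Frizzled receptors and their co-receptors had members in both directions. At least 1.5-fold higher in all 3 lines, which held for 3.11% of all genes, were FZD4 and FZD5. FZD4 went from 204 to 3330 normalized counts in the parent, from 222 to 2190 in WT/- and from 281 to 525 in HAQ/-, with log2 fold changes of 4.03, 3.30 and 0.90 and an adjusted p of 0.0795 by edgeR. FZD8 was at least 1.5-fold lower in all 3 lines, from 909 to 193, from 405 to 135 and from 609 to 377, with an adjusted p of 0.0695 by edgeR. FZD6 had the highest mean of this group over the 6 libraries, at 33.0 CPM per kilobase, although PTK7 was slightly above it in both WT/- libraries. FZD6 had log2 fold changes of -0.09, -0.07 and 0.06.

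**Figure D5:**
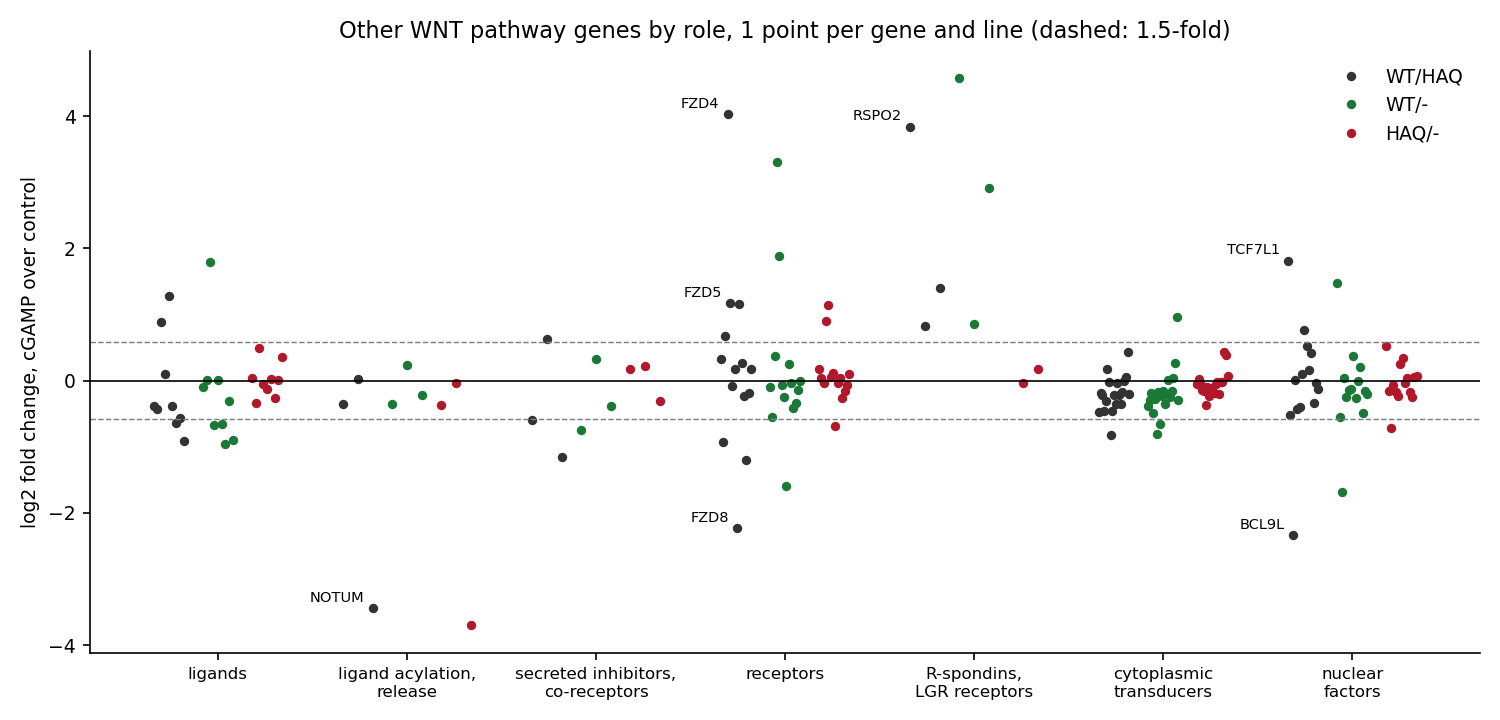
Log2 fold change (cGAMP over control) of the 65 other WNT pathway genes analysed, by role, with 1 point per gene and line and dashed lines at 1.5-fold. Counts under 3 were set to 3, which bounds the points of RSPO2 and NOTUM, and names stand beside the WT/HAQ points. Points of HAQ/- mostly lie between the dashed lines, with 2 genes above and 3 below.

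Among the other ligands, 2 of 9 analysed were at least 1.5-fold higher in the parent and 2 lower, 1 and 4 in WT/-, and 0 and 0 in HAQ/-. With so few genes, nothing is read from these counts beside the shares of all genes, 12.8% and 12.3%, 11.9% and 8.77%, and 6.75% and 5.76%. Named after their values were seen, WNT7B and WNT10A were the lower genes in the parent and were lower in WT/- as well, at log2 fold changes of -0.64 and -0.91 in the former and -0.96 and -0.90 in the latter. The higher genes in the parent, named likewise, were WNT3A and WNT6, at 0.88 and 1.27, with 1.80 and 0.00 in WT/-. WNT3A had 7 to 27 counts per library. WNT9A, the highest of these ligands in each library with a mean of 42.3 CPM per kilobase, had log2 fold changes of -0.56, -0.31 and 0.02. PORCN, the acyltransferase that makes WNT proteins fit for secretion and the highest of its group in its mean of 4.79 over the 6 libraries, though not in either HAQ/- library, had -0.35, -0.36 and -0.37. Of the other secreted inhibitors and their co-receptors, 3 of 14 were analysed. SFRP1, which sequesters WNT proteins and was chosen after its values were seen, went from 499.4 to 329.8 normalized counts in the parent, from 168 to 100.2 in WT/- and from 825 to 933 in HAQ/-. KREMEN1 and KREMEN2, named likewise, encode receptors that bind DKK1. KREMEN1 had log2 fold changes of 0.62, 0.32 and 0.22, and KREMEN2, with 8 to 24 counts per library, had -1.16, -0.39 and -0.30.

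LGR4, a receptor for the R-spondins that shields Frizzled from RNF43 and ZNRF3, was the highest of its group in each library, with a mean of 22.6 CPM per kilobase. It had log2 fold changes of 0.83 (0.75 to 0.91) in the parent, 0.86 (0.77 to 0.95) in WT/- and -0.03 (-0.13 to 0.06) in HAQ/-, with an adjusted p of 0.160 by edgeR. RSPO2, an R-spondin named with its values known, had 1 and 40 counts in the parent, 2 and 50 in WT/- and 3 and 3 in HAQ/-. Its log2 ratio had intervals of 2.90 to 7.95 and 3.26 to 7.06 in the first 2 lines, and it passed the filter on low counts only through those cGAMP libraries.

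Of the cytoplasmic transducers and the destruction complex, 19 were analysed, of which 1 was at least 1.5-fold lower in the parent (GSK3B), 2 were in WT/- (GSK3B and APC2) and 0 were in HAQ/-. Of all genes analysed, 12.3%, 8.77% and 5.76% were that much lower in these lines and 12.8%, 11.9% and 6.75% that much higher. NKD1, which restrains Dishevelled and is itself a β-catenin target, was the 1 gene at least 1.5-fold higher, in WT/-, with log2 fold changes of 0.43 in the parent, 0.96 there and 0.39 in HAQ/- (adjusted p = 0.124 by edgeR). GSK3B, a kinase of the complex named with its values known, had 1804 and 1026 normalized counts in the parent without and with cGAMP. CSNK1A1, the highest in each library with a mean of 48.0 CPM per kilobase, had log2 fold changes of -0.46, -0.23 and -0.15. Of the 14 nuclear factors and co-factors, BCL9L, a co-activator that binds β-catenin, was at least 1.5-fold lower in all 3 lines, from 8261 to 1630, from 12741 to 3948 and from 5519 to 3374 normalized counts, with an adjusted p of 0.0668 by edgeR. TLE5, a co-repressor of the Groucho family, had the highest mean of this group over the 6 libraries, at 46.8 CPM per kilobase, although BCL9L was above it in the parent and WT/- controls. TLE5 had log2 fold changes of 0.17, -0.01 and 0.05. TCF7L1, the fourth TCF/LEF factor, named with its values known, had log2 fold changes of 1.82, 1.47 and 0.53, while TCF7L2 had -0.93, -0.56 and 0.16.

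A list of 15 β-catenin targets shares 6 genes with the 9, and 5 of its 9 others were analysed. Apart from NOTUM, with the limit given above, none had an adjusted p under 0.05 by edgeR, and 1 gene higher (NKD1) and 1 lower (MYC) had an unadjusted p under 0.05, as had 11.6% of all genes higher and 13.6% lower, so nothing is read from these counts. CCND1, which drives entry into the cell cycle and was named with its values known, had log2 fold changes of 0.08, 0.05 and 0.03. MYC, a growth regulator chosen likewise, had -1.56, -0.59 and -0.56, with an adjusted p of 0.0861 by edgeR. The targets did not share 1 direction.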

How the data were processed

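RNA was sequenced in 6 libraries of SKOV3 lines, 1 per line and treatment, grouped by their titles, with 0 columns left unmatched. The authors deposited estimated counts per gene, made from paired-end reads and left without normalization. The submitters' processing notes name STAR, RSEM and GRCh38 (hg38). Versions, annotation release and use of strand in counting are not given in the sources used here, so reads of a gene and an overlapping antisense gene may be mixed. Between 92.7% and 93.3% of values were whole, and values were rounded. Depth was 12444822 to 17608467 counts per library.

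Genes averaging at least 10 counts per library were analysed, with scaling by TMM (factors 0.940 to 1.052) in edgeR 4.0.16 (R 4.3.3). Normalized counts are at the geometric mean of the TMM-scaled totals. For folds, counts under 3 were set to 3, and genes at 3 or fewer in both libraries got none. Intervals were Wilson (ratios), exact Poisson (levels) or, for differences of folds, normal on the log scale, all at 95%. Treatment was tested by edgeR's quasi-likelihood F test with line as a block (2 residual degrees of freedom) and Benjamini-Hochberg adjustment over all analysed genes. DESeq2 1.42.0 gave alternatives, as did other scalings, thinning, filters, fold limits and leaving out a line. The edgeR test was tried on simulated counts in which each changed gene had the same fold in every line, unlike DKK1 here. Python 3.11.15 was used for the rest. Positions and exon lengths are from GENCODE release 44, which held 56434 of the identifiers. STING1 and TLE5 are listed under the older symbols TMEM173 and AES.

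By rule, the text names the 9 genes, STING1, IFNB1, other WNT pathway or target genes called in the test or past 1.5-fold one way in all 3 lines, the highest gene per length of each role, and the 5 genes most like DKK1. Other genes (APC2, CCND1, GSK3B, KREMEN1, KREMEN2, MYC, NKD1, PTK7, RSPO2, SFRP1, TCF7L1, WNT3A, WNT6, WNT7B and WNT10A) were named after their values had been seen, as were those singled out from the marker lists (ERBB2, WT1, MUC16 and COL1A1). Members and lists were chosen with earlier results of these data known, and the motif letters after the DKK1 window had been seen.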

Additional observations from a re-analysis of the deposited data

Results flagged for a closer look

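TCF7L2 was lower with cGAMP in WT/HAQ and WT/- and slightly higher in HAQ/-. Its log2 fold change in HAQ/- lay 1.09 above that in WT/HAQ (95% counting interval 0.79 to 1.39) and 0.71 above that in WT/- (0.41 to 1.02). WNT5A went the other way, higher in WT/HAQ and WT/- and lower in HAQ/-, where its log2 fold change differed by -1.12 (-1.93 to -0.32) from WT/HAQ and by -1.08 (-1.79 to -0.37) from WT/-. Both stood out because their folds in HAQ/- differed from those in the other lines. In HAQ/- the interval of each fold includes 0. These differences between lines were not tested, since each line and treatment has 1 library.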

How the results depend on the processing

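The log2 fold changes of DKK1 stayed within their counting intervals under 12 of 12 alternatives (DESeq2 size factors, total counts, thinning and a floor of 10 counts), from -5.70 to -5.57 for the parent (WT/HAQ), -3.73 to -3.67 for WT/- and -1.40 to -1.37 for HAQ/-, as did those of the other analysed genes in 84 of 84, although some crossed the 1.5-fold limit (TCF7L2, AXIN2, WNT5A and RNF43). Of these genes RNF43 alone had counts under 10, so the floor of 10 counts could not change the folds of DKK1 or of the rest. No scaling moved the median of all genes by more than 0.062 in log2. Counts of the 65 other WNT pathway genes past 1.5-fold depended on the limits. At 1.2-fold, 17 were higher and 25 lower for the parent, 11 and 24 for WT/-, and 8 and 8 for HAQ/-, where all genes had 24.2% and 26.6%, 23.0% and 22.4%, and 15.4% and 17.2%. At 2-fold, 7 were higher and 5 lower for the parent, 6 and 2 for WT/-, and 1 and 1 for HAQ/-, where all genes had 7.37% and 5.36%, 6.57% and 3.47%, and 3.11% and 1.94%. With a mean count of at least 50, 56 of them were counted, and 7 were higher and 8 lower for the parent, 5 and 7 for WT/-, and 2 and 2 for HAQ/-, where all genes had 9.56% and 9.80%, 8.41% and 6.25%, and 3.53% and 2.79%. In the test across lines, which called 1 higher and 1 lower of the 65, DESeq2 called 5 and 5 (772 and 583 of all 15126 genes). With no filter beyond 1 count, 86 genes of the list were tested, and 5 and 6 were called (943 and 864 of all 27666). Without the line block, edgeR called 0 and 0 (57 and 4 of all genes), and 6 and 12 had an unadjusted p under 0.05 (955 and 808). Leaving out a line gave 0 to 9 higher and 0 to 16 lower. The 0 counts came without WT/HAQ (8 higher and 11 lower unadjusted, 1077 and 1109 of all genes) and without WT/- (4 and 8, 949 and 940 of all genes), and the 9 and 16 without HAQ/-, each with 2 lines. The cause was not tested. AXIN2, RNF43, LEF1 and NOTUM are limited by depth.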
